A study of Mus musculus with 6 samples.

Results

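Control cultures of the EML line from the 2 arms of a KAI1 study were compared: the single control library of the overexpression arm against the 2 control libraries of the knockdown arm. These are 3 of the 6 RNA libraries in the series. The other libraries, KAI1 knockdown (n = 2) and KAI1 overexpression (n = 1), are given only beside the controls. Of 23146 transcript entries, 9958 had a mean of at least 1 RPKM (reads scaled by transcript length and by the mapped reads of the library) over the 3 control libraries, with small RNA entries left out. A gene is named where the overexpression control lay at least 2-fold above, or at least 2-fold below, both knockdown controls.

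All 3 control libraries are labelled as EML cells, strain BDF1, tissue bone marrow and cell type basophil, grown in IMDM with 20% foetal bovine serum and 200 ng/ml stem cell factor. The knockdown controls are labelled WT-control (KD), replicates 1 and 2, and the overexpression control is labelled WT-OE. What the control cells of either arm received, the means of knockdown and overexpression, and the time between the arms are not given in the sources used here. No label states separate cultures, so the spread between the knockdown controls may be technical, and a p-value here measures only how these samples spread.

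EML is an immortalised mouse progenitor line that depends on stem cell factor and holds cells able to enter the erythroid, myeloid and mast cell lineages. Mast cells and basophils store histamine, serotonin and proteases in granules and carry the high-affinity IgE receptor. Replication-dependent histone genes are clustered, have no introns, are transcribed mainly in S phase and give mRNAs that end in a stem-loop in place of a poly(A) tail. Fibroblasts and other stromal cells make most fibrillar collagen, small proteoglycans and smooth muscle actin, which blood cells make little of.

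The estimated depth was 17700000 reads in knockdown control replicate 1, 9190000 in replicate 2 and 24000000 in the overexpression control. Cd82, which encodes the tetraspanin KAI1 (mm9 chr2:93259259-93310031), stood at 43.9 and 13.8 RPKM in the controls of the knockdown arm and at 11.9 RPKM in the overexpression control, against 7.65 and 6.91 RPKM in the KAI1 knockdown and 15.2 RPKM in the KAI1 overexpression. The overexpression control thus lay below both knockdown controls, and nearer to replicate 2. Markers of the labelled cell type were uneven: Cpa3, the mast cell carboxypeptidase, stood at 6236 and 4110 RPKM in the controls of the knockdown arm and 2246 RPKM in the overexpression control. Mcpt8, a basophil protease, stood at 160 and 389 RPKM against 491 RPKM. Fcer1a, the IgE-binding chain, stood at 24.2 RPKM in replicate 1, at 0 in replicate 2 and at 0.261 RPKM in the overexpression control, and Prss34, another basophil protease, stayed under 0.72 RPKM in all 3.

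Knockdown control replicate 1 stood apart. Mast cell and basophil genes held 9.44% of its summed RPKM, against 1.73% in replicate 2 and 0.759% in the overexpression control. The knockdown controls differed from each other by at least 2-fold in 2676 of the 9958 entries (26.9%). Replicate 1 differed from the overexpression control in 2571 entries (25.8%), and replicate 2 from the overexpression control in 1125 (11.3%). For this reason each count below rests on both knockdown controls together, and values against each one alone are given where they differ.

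The overexpression control lay at least 2-fold above both knockdown controls in 235 entries (2.36%) and at least 2-fold below both in 288 (2.89%), 523 in all (5.25%). In 3844 entries (38.6%) it lay between them, in 26.6% above both by any amount and in 34.8% below both. The median distance to the nearer knockdown control was 2.56-fold among the higher entries and 2.63-fold among the lower ones, and 59 and 62 of them stood under 2.2-fold. Among the 235 higher entries 47 averaged under 1 RPKM in the knockdown controls and were tested only because the overexpression control was high. Just outside the limit, at 1.8-fold to 2-fold, lay 102 higher and 126 lower entries. Against replicate 2 alone 649 entries were 2-fold higher and 476 lower, and against replicate 1 alone 1064 and 1507. In limma on log2(RPKM + 1), with the spread shared by all 4 groups of the series, no entry passed an adjusted p of 0.05 in either direction (0% and 0%). An unadjusted p under 0.05 was reached by 478 entries (4.8%), 307 higher and 171 lower, and the smallest adjusted p was 0.555. The spread used in limma came only from both pairs of the knockdown arm, and the overexpression control is assumed to vary like them. With 1 library against 2 no exact permutation test could reach 0.05, so the genes below are described by their values in each library.

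**Figure D1:**
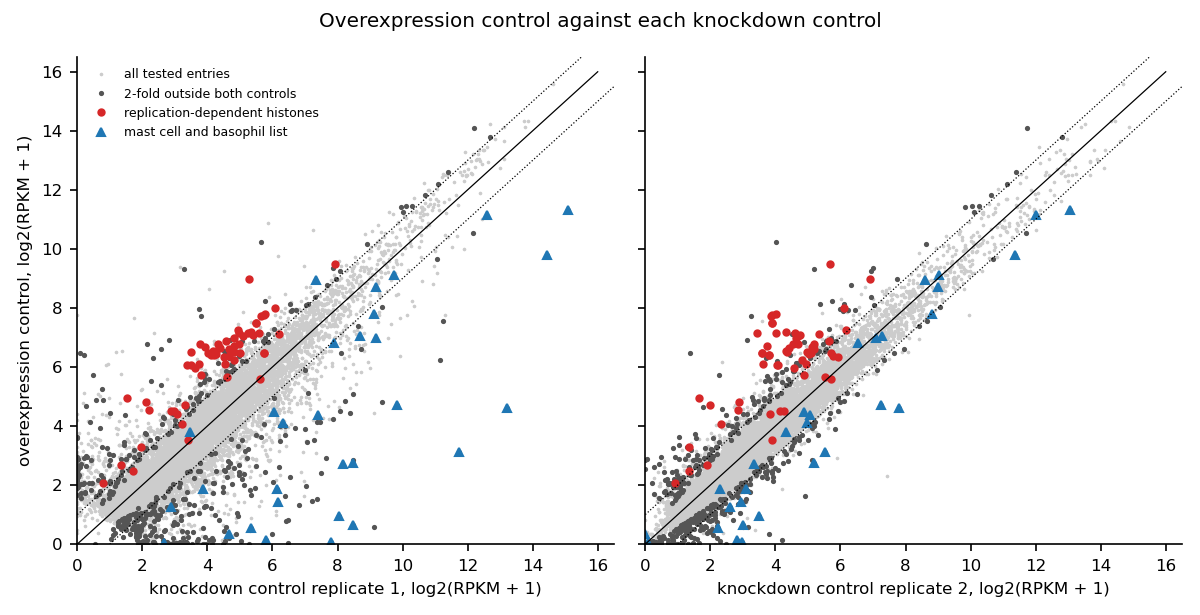
Each panel plots log2(RPKM + 1) in the overexpression control against 1 knockdown control, with a point per tested entry, the line of equality and dotted lines at a difference of 1 on either side. Dark points mark the 523 entries at least 2-fold outside both knockdown controls, the histone entries (red) lie above the line in both panels for 58 of 60, and the cloud is wider against replicate 1.

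The replication-dependent histone genes formed the largest listed group above both knockdown controls. Of 60 tested entries, 45 (75%) lay at least 2-fold above both, none lay 2-fold below, and 58 lay above both by any amount. The median log2 difference was 1.99 over the list and -0.049 over all tested entries. It was the same against each knockdown control, at 1.93 and 1.93, and the knockdown controls differed from each other by a median of -0.10. By class the knockdown controls differed in opposite directions. Median RPKM in replicates 1 and 2 was 39.7 and 13.7 for H2A, but 20.7 and 33.5 for H2B. It was 14.9 and 20.9 for H3, 20.9 and 24.9 for H4, and 6.90 and 16.6 for H1. Against replicate 2 alone 49 of the 60 were 2-fold higher, and against replicate 1 alone 54. In limma, 42 of the 60 had an unadjusted p under 0.05, all of them higher, and none passed after adjustment.

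The core classes were all represented, and the linker class was not. Of the H2A entries 15 of 17 lay 2-fold above both controls (median log2 difference 2.43), of the H2B entries 9 of 14 (1.56), of the H3 entries 11 of 12 (2.08) and of the H4 entries 10 of 12 (2.12). None of the 5 H1 entries did (0.95). Because histone copies are nearly identical in sequence, how reads were split among them is uncertain.

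H2bc1, a histone H2B gene used in the male germ line (mm9 chr13:24025642-24026025), stood at 1.86 and 2.15 RPKM in the controls of the knockdown arm and 30.03 RPKM in the overexpression control, 14.0-fold above the nearer one. H2ac8, an H2A gene, stood at 12.4 and 11.2 RPKM against 67.5 RPKM. H4c11, an H4 gene, stood at 16.2 and 12.9 RPKM against 82.8 RPKM. These 3 genes lie in the same large histone cluster on chromosome 13. In each of the 3 the knockdown controls stood close together, unlike the class medians of H2A.

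H4c2 stood at 20.1 and 20.2 RPKM in the controls of the knockdown arm and 99.0 RPKM in the overexpression control. H3c11, an H3 gene, stood at 17.03 and 18.8 RPKM against 92.0 RPKM. H4c12 stood at 17.5 and 13.05 RPKM against 84.6 RPKM. The H2A gene H2ac4 stood at 30.2 and 23.5 RPKM against 141.8 RPKM, and the H4 gene H4c18 at 27.0 and 23.7 RPKM against 126.6 RPKM. Apart from H2bc1, these genes lay from 4.69-fold (H4c18) to 5.44-fold (H2ac8) above the nearer knockdown control. They were picked for the widest gaps, so this range does not describe the other histone genes.

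The promoters of the 8 histone genes with the widest gaps on log2(RPKM + 1) show how far their sequences are alike. For each, the 160 bases before the start are given in order of the gap, 5′ to 3′ in the direction of the gene, from RefSeq on GRCm38.p6, a later build than the mm9 of the deposited coordinates. Capitals mark the TATA box letters TATAAA, the CCAAT box letters and the octamer ATTTGCAT known from H2A and H2B promoters, each read on either strand. Their reverse complements are TTTATA for the TATA box, ATTGG for the CCAAT box and ATGCAAAT for the octamer.
H2bc1 (chr13:23934157-23934316, minus strand): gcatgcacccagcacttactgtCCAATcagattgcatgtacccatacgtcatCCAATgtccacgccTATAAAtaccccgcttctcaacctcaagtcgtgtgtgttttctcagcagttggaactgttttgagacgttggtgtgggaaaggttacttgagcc
H2ac8 (chr13:23571221-23571380, minus strand): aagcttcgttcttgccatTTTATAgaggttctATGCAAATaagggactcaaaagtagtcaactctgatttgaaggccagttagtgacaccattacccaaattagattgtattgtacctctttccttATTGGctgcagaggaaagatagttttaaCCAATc
H4c11 (chr13:21734874-21735033, plus strand): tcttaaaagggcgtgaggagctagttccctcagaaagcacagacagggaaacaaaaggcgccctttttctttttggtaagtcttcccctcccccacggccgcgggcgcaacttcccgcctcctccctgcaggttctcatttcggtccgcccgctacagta
H4c2 (chr13:23756777-23756936, plus strand): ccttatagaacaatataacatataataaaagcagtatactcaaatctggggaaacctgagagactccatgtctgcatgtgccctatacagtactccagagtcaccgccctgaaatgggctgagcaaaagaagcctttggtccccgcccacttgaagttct
H3c11 (chr13:21783398-21783557, minus strand): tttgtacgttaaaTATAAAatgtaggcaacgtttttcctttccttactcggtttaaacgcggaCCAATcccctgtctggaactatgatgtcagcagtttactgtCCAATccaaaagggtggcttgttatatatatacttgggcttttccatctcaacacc
H4c12 (chr13:21750554-21750713, minus strand): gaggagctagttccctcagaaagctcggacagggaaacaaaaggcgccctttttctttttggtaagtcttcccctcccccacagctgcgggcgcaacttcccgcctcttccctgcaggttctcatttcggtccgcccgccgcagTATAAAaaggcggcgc
H2ac4 (chr13:23750928-23751087, plus strand): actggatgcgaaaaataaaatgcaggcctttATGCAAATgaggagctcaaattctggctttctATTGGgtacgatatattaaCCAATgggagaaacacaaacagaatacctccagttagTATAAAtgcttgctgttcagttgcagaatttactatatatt
H4c18 (chr13:21832198-21832357, minus strand): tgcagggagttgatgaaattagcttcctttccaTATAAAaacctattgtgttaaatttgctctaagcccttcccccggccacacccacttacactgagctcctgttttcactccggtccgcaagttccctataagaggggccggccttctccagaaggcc
In these windows both H2A genes, H2ac8 and H2ac4, hold the letters of all 3 motifs, and H2bc1 and H3c11 hold TATAAA and CCAAT. H4c12 and H4c18 hold TATAAA alone, and H4c11 and H4c2 hold none. The distance of TATAAA from the start varied widely among these genes, so a match in letters does not show a TATA box.

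Promoters were matched for 42 of the 44 histone genes (45 entries, 1 gene on 2) that lay 2-fold above both controls. Over 250 bases before the start and on both strands, TATAAA was found in 21 of the 42 (50%). It was found in 12.4% of all 32851 mouse promoters searched, a set that leaves out 1 chromosome. CCAAT was found in 34 of the 42 (81%) and in 33.8% of all promoters. ATTTGCAT was found in 10 of 23 H2A and H2B promoters (43.5%), in none of 19 H3 and H4 promoters and in 1.6% of all promoters. The 10 matched promoters of tested histone genes that did not reach 2-fold held TATAAA in 6, CCAAT in 8 and ATTTGCAT in 2. A match is a description of the letters and not of a bound site.

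**Figure D2:**
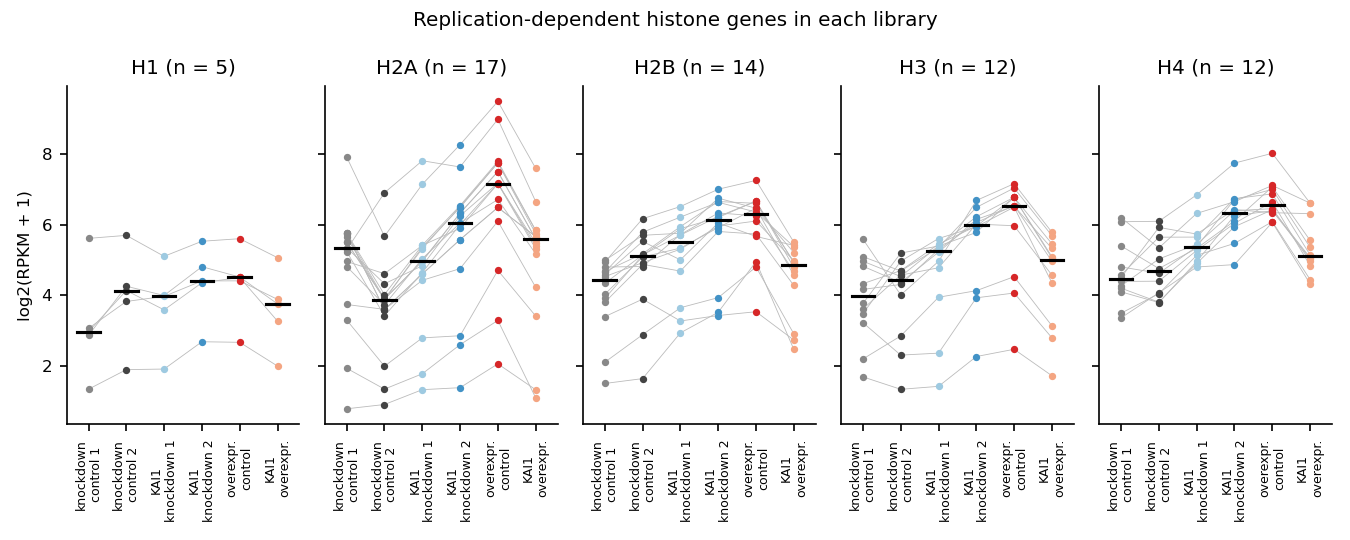
Points give log2(RPKM + 1) of each replication-dependent histone entry in each of the 6 libraries, 1 panel per class, with lines joining an entry and black bars at the class median. The overexpression control is highest of the 6 libraries in 48 of the 60 entries.

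The KAI1 libraries fell between the controls in histone level. Of summed RPKM, the histone list held 0.624% in the overexpression control against 0.193% and 0.144% in the knockdown controls. With KAI1 knocked down it held 0.234% and 0.394%, and with KAI1 overexpressed 0.208%. The overexpression control was highest in 48 of 60 entries, but it lay 2-fold above all 4 libraries of the knockdown arm in only 14 of 60, 11 of them H2A. Histone levels thus differed within the knockdown arm as well.

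Other features moved with the histone result. The histone transcripts had a median length of 526 nt and 59.3% GC, against 2743 nt and 50.5% over all tested entries. Of 59 non-histone entries spanning under 1000 bp, 6 (10.2%) lay 2-fold above both knockdown controls and none below, with a median log2 difference of 0.22. After differences were centred within bins of equal GC content, an alternative added after seeing the data, 37 of the 60 histone entries still lay 2-fold above both controls, with a median of 1.82. An entry without a symbol on chromosome 17, left out of the tested entries, was listed at 0 in the overexpression control and in KAI1 knockdown replicate 2, the libraries with the highest histone shares. Its level was 7192 and 4448 RPKM in the controls of the knockdown arm, 7101 RPKM in KAI1 knockdown replicate 1 and 7777 RPKM with KAI1 overexpressed, and its part in the histone values was not tested. The sources used here do not say whether polyadenylated RNA was selected, and the part of such selection in the histone values was not tested. Among the 8 tested replacement histone genes, whose mRNAs mostly carry a poly(A) tail and which were grouped after their values were seen, 1 lay 2-fold above both controls, with a median log2 difference of 0.35. It was H2aj, an H2A gene, at 203 and 79.4 RPKM in the controls of the knockdown arm and 438 RPKM in the overexpression control.

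The other cell cycle lists held no gene 2-fold outside both controls. Over all tested entries 2.36% lay 2-fold above both and 2.89% below. At those shares, lists of 46, 37 and 17 genes would hold few such genes. None of the 46 tested genes of DNA replication and S phase lay 2-fold outside both knockdown controls in either direction. Their median log2 difference was 0.29, with 23 above both controls, 5 below both and 18 between, and single genes ran from -0.51 to 0.82. Over all tested entries 26.6% lay above both and 34.8% below both, so the S phase list leaned to the higher side. The lean was mostly against replicate 1, as the S phase median was 0.51 against replicate 1 alone and 0.06 against replicate 2 alone. None of 37 genes of G2/M and mitosis lay 2-fold outside both controls, with a median of -0.06 and 21 between the controls. None of 17 cyclins, kinases and inhibitors of G1 did either, with a median of 0.00. Against 1 control alone the G2/M median was -0.41 (replicate 2) and 0.33 (replicate 1). The difference between the histone list and the S phase list was not tested.

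**Figure D3:**
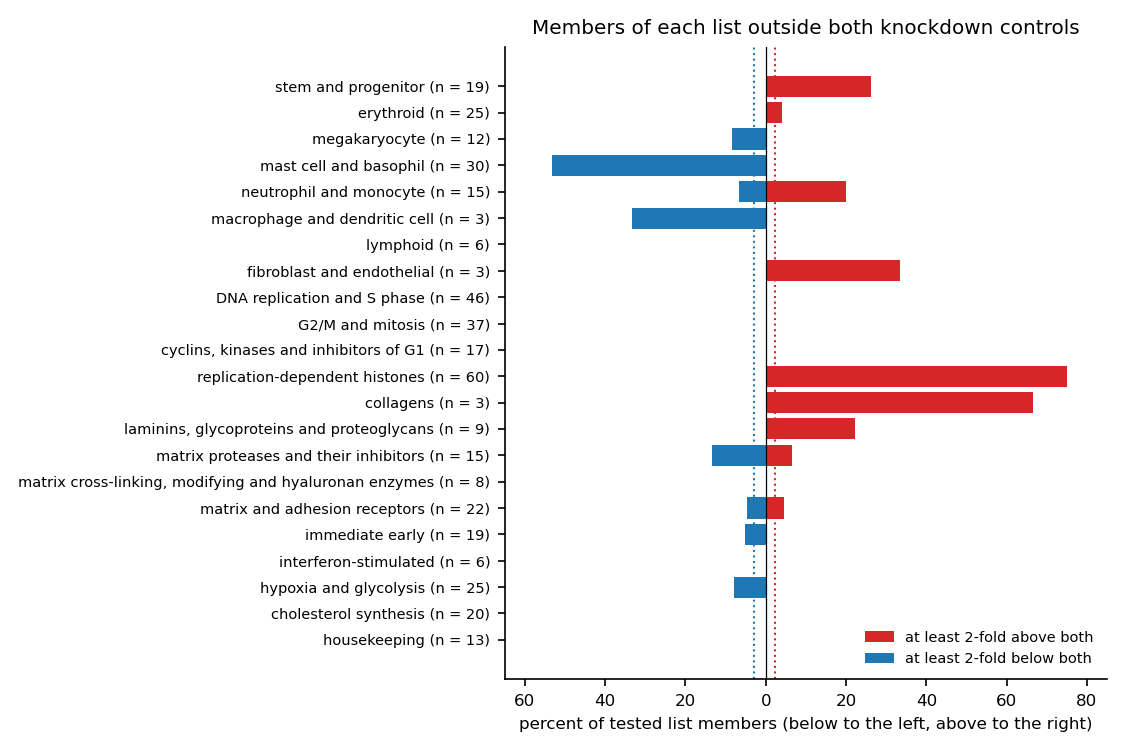
Bars give the percent of tested members of each list at least 2-fold above both knockdown controls (right) or below both (left), for lists with at least 3 tested members. Dotted lines mark the shares over all tested entries, 2.36% and 2.89%; the histone list reaches 75% on the right and the mast cell and basophil list 53.3% on the left.

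Mast cell and basophil genes were the largest listed group below both knockdown controls. Of 30 tested genes, 16 (53.3%) lay at least 2-fold below both, against 2.89% of all tested entries. None lay 2-fold above both, and 25 lay below both by any amount. The basophil protease Mcpt8 went the other way and stood above both knockdown controls, by less than 2-fold. The median log2 difference was -1.92. Its size depended on which knockdown control was used, at -3.39 against replicate 1 and -0.94 against replicate 2, as replicate 1 exceeded replicate 2 by a median of 2.45 in these genes. Against replicate 2 alone 16 of 30 lay 2-fold below, and against replicate 1 alone 26. In limma 8 of the 30 had an unadjusted p under 0.05, and none passed after adjustment. As these are bulk samples, fewer cells of a type and less RNA per cell cannot be told apart.

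Granule proteases differed widely between the libraries. Mcpt4, a mast cell chymase (mm9 chr14:56678581-56681147), stood at 9416 and 221 RPKM in the controls of the knockdown arm and 23.2 RPKM in the overexpression control, 9.49-fold below the nearer one. Tpsab1, a tryptase, stood at 224 and 6.93 RPKM against 0.0402 RPKM, 173-fold below the nearer one. The tryptase Tpsb2 stood at 3379 and 45.1 RPKM against 7.72 RPKM, and the membrane-anchored tryptase Tpsg1 at 354 and 7.10 RPKM against 0.564 RPKM. In all 4 the overexpression control was the lowest control. As ratios, the knockdown controls stood further from each other than replicate 2 stood from the overexpression control, except in Tpsab1. Proteases of one family resemble each other in sequence, so the split of reads between Tpsab1 and Tpsb2 is uncertain.

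Amine synthesis and transport genes and a surface receptor showed the same order of libraries. Hdc, which makes histamine, stood at 902 and 150 RPKM in the controls of the knockdown arm and 25.1 RPKM in the overexpression control. Tph1, which starts serotonin synthesis, stood at 266 and 10.4 RPKM against 0.917 RPKM, and Slc6a4, the serotonin transporter, at 357 and 35.7 RPKM against 5.65 RPKM. Cd200r3, an activating receptor of mast cells and basophils, stood at 54.6 and 5.998 RPKM against 0.0997 RPKM. The other 8 genes of the list 2-fold below both controls lay 2.004-fold to 8.37-fold below the nearer one.

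The order did not hold in every library of the series. Over the mast cell and basophil list, the share of summed RPKM was 1.01% and 0.895% in the KAI1 knockdown, near the 0.759% of the overexpression control, and 2.95% with KAI1 overexpressed. Hdc stood at 32.7 and 64.2 RPKM in the KAI1 knockdown and 52.8 RPKM in the KAI1 overexpression, and Slc6a4 at 22.2 and 11.1 RPKM and 172 RPKM. The motif AGATAA, bound by GATA factors, was found on either strand in 3 of 15 promoters (20%) of these lower mast cell genes, with 13 of 16 genes matched, in 9.99% of all promoters and in 9 of the 42 promoters (21.4%) of the higher histone genes.

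**Figure D4:**
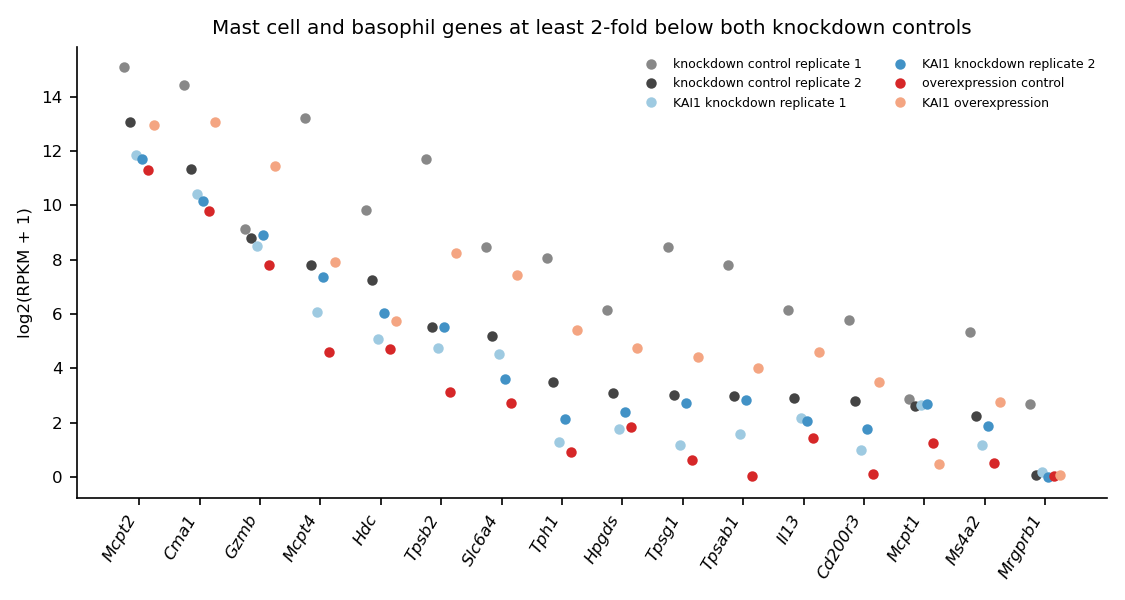
Points give log2(RPKM + 1) in each of the 6 libraries for the 16 mast cell and basophil genes at least 2-fold below both knockdown controls. Knockdown control replicate 1 is the highest of the 3 control libraries and the overexpression control the lowest in each of the 16.

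Progenitor genes leaned the other way. Of 19 tested stem and progenitor genes, 5 (26.3%) lay 2-fold above both knockdown controls, against 2.36% of all tested entries, and none lay 2-fold below. The median log2 difference was 0.22, and 10 of the 19 lay between the knockdown controls. Tcf7, a transcription factor of EML self-renewal (mm9 chr11:52066106-52095752), stood at 0.144 and 20.7 RPKM in the controls of the knockdown arm and 83.3 RPKM in the overexpression control. Sox4, a transcription factor of progenitors, stood at 3.44 and 43.5 RPKM against 109.8 RPKM, and Mycn, a Myc family factor, at 0.690 and 1.41 RPKM against 8.87 RPKM. Hlf stood at 0.231 and 2.84 RPKM against 6.69 RPKM, and Lyl1 at 21.7 and 45.0 RPKM against 92.5 RPKM; both are transcription factors of haematopoietic stem cells. In all 5 the order was replicate 1, replicate 2, overexpression control. Against replicate 2 alone 5 of the 19 were 2-fold higher and none lower, and against replicate 1 alone 10 were higher and 3 lower. In the KAI1 overexpression, Tcf7 stood at 0.912 RPKM and Hlf at 0.260 RPKM, and Mycn was at 18.4 RPKM. Sox4 stood there at 33.0 RPKM and Lyl1 at 64.8 RPKM. In the KAI1 knockdown, Sox4 at 84.1 and 93.2 RPKM and Lyl1 at 66.6 and 89.4 RPKM lay within 2-fold of the overexpression control. Tcf7 at 31.4 and 16.4 RPKM, Hlf at 3.17 and 2.55 RPKM and Mycn at 2.83 and 2.52 RPKM lay 2-fold or more below it.

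Erythroid genes were mostly bracketed by the knockdown controls. Of 25 tested genes, 20 lay between them, and only Zfpm1, which encodes the GATA cofactor FOG1, lay 2-fold outside, at 14.2 and 15.3 RPKM against 53.8 RPKM. This is 4% of the list 2-fold above both, near the 2.36% of all tested entries. The median log2 difference of the list was 0.91, but it was 2.40 against replicate 1 and -0.76 against replicate 2, so its sign turned with the control used. Among 12 megakaryocyte genes, Rab27b, a GTPase of granule release, was 2-fold lower, at 26.3 and 8.37 RPKM against 3.15 RPKM, and none was 2-fold higher. Rab27b alone makes 8.33% of this short list, against 2.89% of all tested entries 2-fold below both.

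Neutrophil and monocyte genes lay on both sides. Of 15 tested, 3 (20%) lay 2-fold above both controls and 1 (6.67%) below, with a median of 0.63. Over all tested entries 2.36% lay 2-fold above both and 2.89% below. Against replicate 2 alone 4 were 2-fold higher and 4 lower. Cebpa, a myeloid transcription factor, stood at 0.0399 and 0.959 RPKM in the controls of the knockdown arm and 4.11 RPKM in the overexpression control. Cebpe, a factor of granulocyte maturation, stood at 0.188 and 0.723 RPKM against 2.35 RPKM, and Prtn3, a granule protease, at 0 and 1.10 RPKM against 3.36 RPKM. Fcgr3, an IgG receptor, was lower, at 275 and 200.5 RPKM against 86.9 RPKM. The 3 higher genes averaged under 1 RPKM in the knockdown controls and were tested only through the overexpression control. Centring on GC content took Cebpe, Prtn3 and Lyl1 below 2-fold, a pseudocount of 1 in the 2-fold rule took Cebpe below it, and quantile normalization took Lyl1 below it. Among 3 macrophage and dendritic cell genes Adgre1 was 2-fold lower, at 2.92 and 0.154 RPKM against 0.0588 RPKM. It was tested only through replicate 1, and a pseudocount of 0.1 or 1, or quantile normalization, took it below 2-fold. None of 6 lymphoid and 2 eosinophil genes lay 2-fold outside both controls, against 5.25% of all tested entries.

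Few matrix genes reached the level for testing: 3 of 43 collagens, 9 of 60 laminins, glycoproteins and proteoglycans, 15 of 85 matrix proteases and inhibitors, and 8 of 24 cross-linking and hyaluronan enzymes. Of these genes 5 lay 2-fold above both knockdown controls and 2 below. Above both lay 2 of the 3 collagens, 2 of the 9 laminins, glycoproteins and proteoglycans, and 1 of the 15 proteases and inhibitors. Over all tested entries this share was 2.36%. The lower genes were 2 of the 15 proteases and inhibitors (13.3%), against 2.89% of all tested entries. Bgn, Timp1 and Col11a2 reached the level for testing only through the overexpression control, so their place among the higher genes was partly set by the filter. Bgn, the small proteoglycan biglycan (mm9 chrX:70728974-70741275), stood at 0.0222 and 0 RPKM in the controls of the knockdown arm and 4.82 RPKM in the overexpression control. Timp1, an inhibitor of matrix metalloproteinases, was listed at 0 in both knockdown controls and stood at 6.14 RPKM. The deposited span of Timp1 (mm9 chrX:20425669-20498044) overlaps Araf and Syn1, and no source used here gives the strand, so its assignment is uncertain. Both genes were also present in the KAI1 overexpression, at 3.89 RPKM for Bgn and 5.25 RPKM for Timp1, and at or near 0 in the KAI1 knockdown, at 0 and 0.217 RPKM and at 0 in both libraries.

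Cartilage-type collagens and a latent TGF-beta binding protein made up the rest of the higher matrix genes. Col9a3 stood at 0.349 and 2.16 RPKM in the controls of the knockdown arm and 6.17 RPKM in the overexpression control, and Col11a2 at 0.638 and 0.537 RPKM against 2.501 RPKM. Ltbp3 stood at 1.69 and 0.956 RPKM against 3.51 RPKM. The lower matrix genes were proteases. Plau, the urokinase that activates plasminogen, stood at 63.7 and 7.34 RPKM against 3.31 RPKM, and Mmp2, a gelatinase, at 9.88 and 3.20 RPKM against 1.01 RPKM. Plau and Ltbp3 fell short of 2-fold after GC centring and with a pseudocount of 1.

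Of 22 tested matrix and adhesion receptors, 1 was 2-fold higher and 1 lower (4.5% each), near the 2.36% and 2.89% of all tested entries. Icam2, a ligand of leukocyte integrins, stood at 22.1 and 37.7 RPKM against 88.9 RPKM, and Itga9, an integrin chain, at 7.43 and 1.41 RPKM against 0.618 RPKM. In the KAI1 knockdown, Icam2 stood at 61.7 and 103.7 RPKM and Itga9 at 1.19 and 0.987 RPKM. With a pseudocount of 1 Itga9 fell short of 2-fold.

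Of the 16 markers of fibroblasts and endothelium, 3 were tested and 1 lay 2-fold above both knockdown controls, against 2.36% of all tested entries. It was Acta2, smooth muscle actin (mm9 chr19:34315581-34329826), at 0.0136 and 0.0259 RPKM in the controls of the knockdown arm, 6.38 RPKM in the overexpression control and 5.47 RPKM with KAI1 overexpressed. Acta2 reached the level for testing only through the overexpression control, so its place among the higher genes was partly set by the filter. Counting untested markers too, 6 of the 16 reached 1 RPKM in the overexpression control, 3 in the KAI1 overexpression and 2 in each of the 4 libraries of the knockdown arm. Listed at 0 were 5 markers in the overexpression control, 7 in the KAI1 overexpression, 11 in each knockdown control and 9 in each KAI1 knockdown library. The collagen chains Col1a1 and Col1a2, under the level for testing, stood at 1.63 and 1.28 RPKM in the overexpression control and at most at 0.0648 RPKM in the knockdown controls. Pdgfra and Lum (fibroblast) and Kdr and Emcn (endothelium) were listed at 0 in all 6 libraries. The summed RPKM of the list, most of it from Pecam1 and Pdgfrb, was 75.6 and 52.0 in the knockdown controls and 72.7 in the overexpression control. The part of such cells in the matrix values was not tested.

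**Figure D5:**
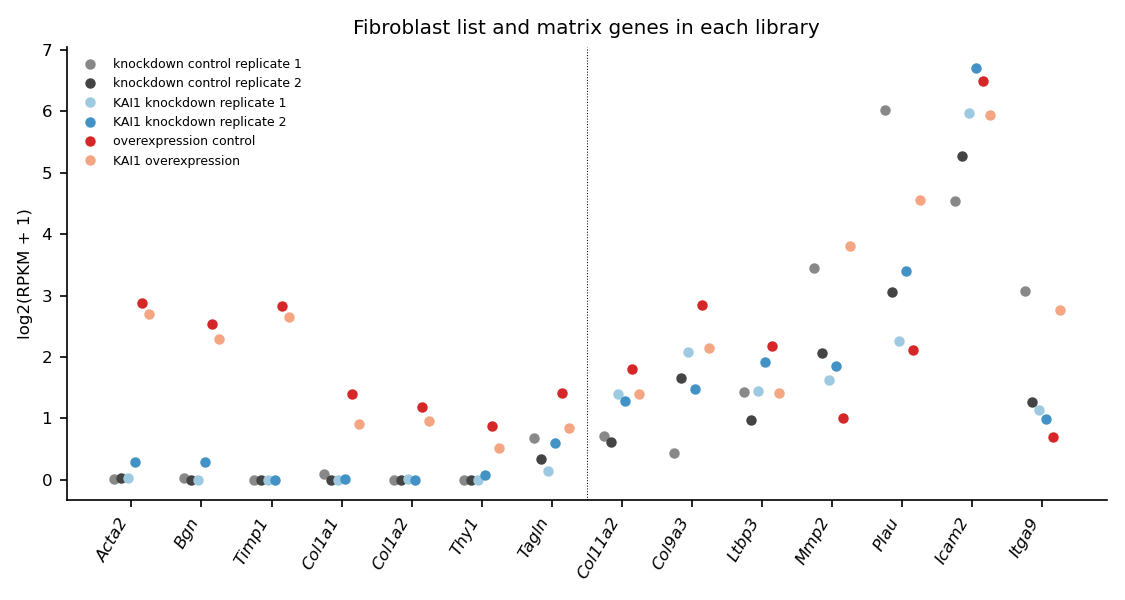
Points give log2(RPKM + 1) in each of the 6 libraries for Acta2, Bgn, Timp1 and fibroblast markers under the level for testing (left of the dotted line) and for other matrix and adhesion genes outside both knockdown controls (right). Acta2, Bgn and Timp1 stand between 3.89 and 6.38 RPKM in both libraries of the overexpression arm and at or under 0.228 RPKM in the 4 libraries of the knockdown arm.

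Several of the widest gaps to the nearer control belonged to genes on no list. Tnni1, troponin I of slow skeletal muscle (mm9 chr1:137695998-137707566), had the largest on the log2(RPKM + 1) scale, with 0.0582 and 1.59 RPKM in the controls of the knockdown arm and 86.8 RPKM in the overexpression control, 54.6-fold above the nearer one. It stood at 1.38 and 0.740 RPKM in the KAI1 knockdown and 0.170 RPKM in the KAI1 overexpression, so 1 library of 6 was high. Tnni1 averaged 0.823 RPKM in the knockdown controls and reached the level for testing only through the overexpression control. Its place among the higher genes was thus partly set by the filter. Actr5, a subunit of the INO80 chromatin remodeller (mm9 chr2:158450649-158464947), stood at 8.76 and 35.7 RPKM against 630.3 RPKM, and between 13.8 and 32.2 RPKM in the KAI1 libraries. Gstp3, a glutathione S-transferase, stood at 0.412 and 3.77 RPKM against 52.4 RPKM, and between 3.33 and 7.71 RPKM in the KAI1 libraries.

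Other wide gaps were shared with a KAI1 library. Rps6ka4, a kinase of the MSK family (mm9 chr19:6903574-6915091), stood at 49.3 and 15.1 RPKM in the controls of the knockdown arm, 1210 RPKM in the overexpression control and 4298 RPKM with KAI1 overexpressed. Ercc2, a helicase of transcription factor TFIIH, stood at 13.1 and 8.53 RPKM against 208 RPKM, with 268 and 19.1 RPKM in the KAI1 knockdown. Irak1, a kinase of interleukin 1 and Toll-like receptor signalling, stood at 53.2 and 52.1 RPKM against 302.0 RPKM, with 212 and 45.5 RPKM in the KAI1 knockdown and 283 RPKM in the KAI1 overexpression. Both genes were thus high in 1 KAI1 knockdown library and not in the other. The spans of Ercc2 and Klc3 overlap, so the assignment of its reads is uncertain.

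Islr, which encodes a secreted leucine-rich repeat protein, stood at 0 and 1.04 RPKM against 11.3 RPKM, with 9.47 and 10.05 RPKM in the KAI1 knockdown. Tox, a transcription factor of lymphoid development, stood at 0 and 0.388 RPKM against 6.75 RPKM, and the RIKEN transcript 8430423G03Rik at 0 and 0.215 RPKM against 5.17 RPKM. Islr, Tox and 8430423G03Rik reached the level for testing only through the overexpression control, so their place among the higher genes was partly set by the filter.

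Among lower genes, Ripk3, the kinase of necroptosis (mm9 chr14:56403832-56407694), had the largest difference from the nearer knockdown control on the log2(RPKM + 1) scale. Its level was 17.2 and 17.4 RPKM in the controls of the knockdown arm, 7.56 and 9.62 RPKM in the KAI1 knockdown, 6.28 RPKM in the KAI1 overexpression and 0.107 RPKM in the overexpression control, 160-fold below the nearer knockdown control. Its log2(RPKM + 1) difference was -4.05 with a standard error of 0.288 and an adjusted p of 0.555 in limma. Leaving out knockdown control replicate 1 brought Ripk3 past the threshold (adjusted p = 0.0341), together with Actr5, Rps6ka4 and Tnni1 as higher genes, and no other entry. Leaving out replicate 2 gave 875 higher and 1155 lower entries in limma. Each control group then holds 1 library, which is assumed to vary like the KAI1 knockdown pair.

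Pea15a, a death effector domain protein, stood at 63.0 and 12.9 RPKM in the controls of the knockdown arm and 0.267 RPKM in the overexpression control, and at 56.4 RPKM in the KAI1 overexpression. Prnp, the prion protein gene, stood at 83.2 and 29.4 RPKM against 2.13 RPKM, with 4.08 RPKM in the KAI1 overexpression. Clec10a, a lectin of macrophages and dendritic cells, stood at 553 and 6.99 RPKM against 0.503 RPKM. The protease pseudogene Mcpt-ps1 stood at 356 and 33.7 RPKM against 6.12 RPKM, the protease inhibitor Spink2 at 32.0 and 3.89 RPKM against 0.0874 RPKM, and Pja1, a ubiquitin ligase, at 6.73 and 3.65 RPKM against 0.143 RPKM. For Pea15a, Pja1 and Ripk3 no library other than the overexpression control stood under 1 RPKM, whereas Prnp was low in both libraries of the overexpression arm.

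Few genes of the culture state lists lay 2-fold outside both controls. Over all tested entries 2.36% lay 2-fold above both and 2.89% below. Below both lay 8% of the hypoxia and glycolysis list and 5.26% of the immediate early list. Of 25 hypoxia and glycolysis genes 2 lay 2-fold below both controls: Ndrg1, a stress-induced gene, at 659 and 61.8 RPKM against 27.0 RPKM, and Pfkp, a phosphofructokinase, at 82.2 and 34.5 RPKM against 14.9 RPKM. Of 19 immediate early genes 1 did, Egr3, at 13.7 and 1.08 RPKM against 0.442 RPKM, and it fell short of 2-fold with a pseudocount of 1. None of 20 cholesterol synthesis genes lay 2-fold outside both, but 13 of the 20 lay below both by any amount, against 34.8% of all tested entries, and their median was -0.55. None of 6 interferon-stimulated and 13 housekeeping genes lay 2-fold outside both, with medians of -0.13 and 0.05.

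Transcript composition moved with the calls. The higher entries had a median GC content of 57.5% and the lower ones 48.9%, against 50.5% over all tested entries. With histones left out and entries split into 5 equal bins of GC content, 0.409% of the lowest bin and 5.37% of the highest lay 2-fold above both controls, and 3.48% and 1.38% lay 2-fold below both. The median difference from knockdown control replicate 2 ran from -0.32 in the lowest bin to 0.43 in the highest, and that from replicate 1 from -0.11 to 0.07. Between the knockdown controls, the median of replicate 1 minus replicate 2 ran from -0.19 to 0.44. The trend in the medians thus lay mostly in comparisons with replicate 2. After centring within bins 184 entries lay above both and 267 below, of which 166 and 233 were among those counted before.

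Some of these entries also set the overexpression control apart from the KAI1 knockdown. Of the 235 higher entries, 61 also lay 2-fold above both KAI1 knockdown libraries, and of the 288 lower entries 83 lay 2-fold below both. Both comparisons use the same overexpression control. The overexpression control is the only control library of its arm, so what belongs to the arm and what belongs to this library cannot be told apart.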

How the data were processed

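RNA of EML cells was measured in 6 libraries, of which the 3 control libraries were compared. Per the file headers, the authors deposited RPKM per transcript entry; TopHat2 2.0.9, Bowtie, Cufflinks and the build mm9 are named, per the submitters' processing notes, without settings. The design assumed a length- and depth-relative unit, and the same test was used. Each library's table held 23170 entries, 24 of them repeats (20 identical), and 23146 were used. RefSeq gave the symbol of 22836 entries and GENCODE that of 129, and 181 had none. A group of 690 small RNA entries (span under 300 bp, or a small RNA class) was left out. It includes 1 entry without a symbol (mm9 chr17:39979942-39985774), put there by hand, that stood at 7192 and 4448 RPKM in the controls of the knockdown arm and 0 in the overexpression control. Tested were entries whose RPKM averaged 1 or more across the 3 control libraries.

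The main count is of entries where the overexpression control lay at least 2-fold outside both knockdown controls, on RPKM as deposited. List differences are on log2(RPKM + 1), the overexpression control minus the mean of the knockdown controls, a scale that understates changes of low genes. limma 3.58.1 in R 4.3.3 was fitted to all 6 libraries in 4 groups, with a mean-variance trend, two-sided tests and Benjamini-Hochberg adjustment at 0.05, and was tested on simulated data. Tables were handled with Python 3.11.15 and pandas 2.3.3. Depth is not stated. It was estimated from the steps between low values, which are whole reads; knockdown control replicate 1 was placed at 17700000 reads (quartiles 16300000 and 19400000 over 37 entries). No count test was run, since whole reads could not be had for all entries.

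Named genes are the 15 with the largest gap to the nearer knockdown control in each direction, and up to 8 in each direction in each of 23 lists, all at least 2-fold outside both. Cd82 and markers of the labelled or of other cell types are named as checks. Members and lists were chosen with earlier results of these data known.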

Additional observations from a re-analysis of the deposited data

How the results depend on the processing

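Counts of genes at least 2-fold outside both knockdown controls moved with the settings, and no result changed from a called direction to the other. With a pseudocount of 1 in the 2-fold rule, 122 genes lay below both, and knockdown control replicate 2 and the overexpression control differed in 709. With a mean of 5 RPKM or more, 148 lay above both and 133 below, the pairs of control libraries differed in 1730, 1594 and 668 genes, and the list medians were -0.53 (lymphoid), 0.0097 (fibroblast and endothelial) and -0.15 (laminins, glycoproteins and proteoglycans). With no filter and a pseudocount of 1, 122 lay below both, medians were -0.067 (neutrophil and monocyte) and 0.062 (collagens), and limma called 63 higher genes and none lower. At 3-fold 85 lay above both and 122 below, and at 4-fold 47 and 86. Requiring the same distance from the KAI1 knockdown left 61 and 83. The collagen median was 1.92 with a pseudocount of 0.1, 1.27 with quantile normalization and 0.87 with GC centring. The cholesterol synthesis median was -0.62, -0.50 and -0.45 under those settings and -0.51 with median-ratio size factors. The fibroblast and endothelial median was 0.45 with size factors, 0.39 with quantile normalization and 0.51 with GC centring, and the histone median 1.82 with GC centring. GC centring, leaving out entries that overlap a small RNA and counting identical entries once were added after seeing the data. Leaving out each replicate gave 649 to 1064 genes above and 476 to 1507 below, and 0 to 875 higher and 0 to 1155 lower in limma. List medians then ran from 0.21 to 1.10 (stem and progenitor), -0.76 to 2.40 (erythroid), 0.30 to 1.495 (neutrophil and monocyte), 0.0087 to 0.30 (lymphoid), 0.63 to 0.73 (fibroblast and endothelial), -0.41 to 0.33 (G2/M and mitosis), -0.46 to 0.12 (matrix and adhesion receptors), -0.29 to -0.036 (interferon-stimulated), -0.39 to 0.64 (hypoxia and glycolysis) and -0.64 to -0.49 (cholesterol synthesis). The cause of these shifts was not tested. No paired analysis was possible because the overexpression control has 1 library without a replicate number, so the groups share fewer than 2 numbers. Estimated depth was lowest in knockdown control replicate 2, which limits the precision of low values there.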

Other observations

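Groups of genes on no list were chosen after their values were seen, and are given as values only. Among the entries at least 2-fold below both knockdown controls, Atf4, a transcription factor of the amino acid stress response, stood at 658 and 535 RPKM in the controls of the knockdown arm and 259 RPKM in the overexpression control. Chac1, an enzyme that breaks down glutathione, stood at 128 and 56.5 RPKM against 14.0 RPKM, Trib3, a pseudokinase, at 32.2 and 8.30 RPKM against 3.62 RPKM, and the stress protein gene Nupr1 at 132 and 23.0 RPKM against 10.06 RPKM. In the KAI1 knockdown, Atf4 stood at 348 and 382 RPKM and Chac1 at 22.5 and 47.0 RPKM, between the control groups, while Trib3 at 2.42 and 5.94 RPKM and Nupr1 at 8.36 and 21.5 RPKM lay on both sides of the overexpression control. The chemokine gene Ccl3 stood at 3.31 and 1.75 RPKM and was listed at 0 in the overexpression control, and the chemokine gene Ccl17 stood at 7.19 and 4.51 RPKM against 1.15 RPKM. Fcer1g, the signalling chain shared by IgE and IgG receptors, stood at 4607 and 3309 RPKM against 1488 RPKM, and Maob, an enzyme that breaks down amines, at 21.4 and 1.78 RPKM against 0.

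Among the entries at least 2-fold above both knockdown controls, Ckm, the muscle creatine kinase, stood at 1.36 and 0.849 RPKM in the controls of the knockdown arm and 3.66 RPKM in the overexpression control. Myl4, a myosin light chain, stood at 0.143 and 2.48 RPKM against 6.57 RPKM, with 6.48 and 6.36 RPKM in the KAI1 knockdown. Cox6a2, a muscle-type subunit of cytochrome c oxidase, stood at 3.20 and 6.15 RPKM against 12.7 RPKM. Of these, Ckm and Cox6a2 were higher in the overexpression control than in both KAI1 knockdown libraries by more than 2-fold, and Myl4 was not. Grb10, an adaptor of insulin receptor signalling, stood at 0.0745 and 0.348 RPKM against 5.56 RPKM and stayed under 0.374 RPKM in all other libraries. Grb10 reached the level for testing only through the overexpression control. Rpl36, a ribosomal protein gene with a short transcript, stood at 4715 and 3416 RPKM against 17313 RPKM, with 6660 and 10624 RPKM in the KAI1 knockdown.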
